A study of Homo sapiens with 24 samples.

Results

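The comparison described here is H1975 cells given almonertinib plus paclitaxel against H1975 control cells, read across the whole transcriptome. Its members were chosen by their labels and not by any measured value: the 3 combination libraries and the 3 control libraries of this line, 6 of 24 libraries in the series. H1975 is a human lung adenocarcinoma line that carries an activating EGFR mutation together with a resistance mutation in the same kinase. The series also holds PC9, another EGFR-mutant lung adenocarcinoma line, and each line has a control group, an almonertinib group, a paclitaxel group and a combination group of 3 libraries. All cells were harvested at 24 h. The single-drug H1975 groups received 1 nM almonertinib or 1 nM paclitaxel, and those of PC9 received 2 nM almonertinib or 0.3 nM paclitaxel. The labels name both drugs for the combination groups without a dose of their own, and do not say what the controls were given. They do not say whether the repeats were separate cultures, so the p-values measure only the spread between these samples.

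Almonertinib is a covalent EGFR inhibitor selective for the mutant receptor. Signal from EGFR runs through RAS, RAF, MEK and ERK to a set of quickly induced targets, among them transcription factors (EGR1, FOSL1, the ETV factors) and the phosphatases and Sprouty proteins that damp the pathway. Paclitaxel binds beta-tubulin, stabilises microtubules and disturbs mitosis. Interferon-stimulated genes, which carry antiviral proteins, are switched on through STAT and IRF factors at a promoter sequence named the interferon-stimulated response element, and the MHC class II genes are controlled by the coactivator CIITA.

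Read counts were available for 19702 genes, and 12345 passed the filter on low counts in H1975. The 6 libraries held 15255499 to 24245314 counted reads. Levels are given as CPM, read counts scaled to the same total in every library after a correction for composition. Sums over marker genes are the exception and lack that correction. A gene was called when its adjusted p in edgeR's quasi-likelihood test, fitted on all 12 H1975 libraries, was under 0.05. The within-group coefficient of variation was 0.0677 in the combination group and 0.175 in the control group. The third control library differed from the others: its deviations from the line's mean correlated across genes with transcript length at 0.325, against -0.231 and -0.228 in the first and second control libraries, and with GC content at -0.633, against 0.302 and 0.407. Almonertinib library 1, which enters the estimate of spread only, stood farthest from the other H1975 libraries, with a first principal component of -52.5. Epithelial markers summed to between 12520 and 12920 CPM in the combination libraries and between 13095 and 13968 CPM in the controls. The factors of the correction were 0.892, 0.908 and 1.06 in control libraries 1 to 3 and 1.03 in each combination library. A gap between the groups in these uncorrected sums is therefore not evidence of a difference. Sums for fibroblast, leukocyte and endothelial markers reached at most 12.4, 54.9 and 25.7 CPM in these 6 libraries. At 0 in all 6 were 6 of 8 fibroblast, 2 of 8 leukocyte and 1 of 8 endothelial markers. Others were read. With the correction, COL1A1, CSF1R and EGFL7 averaged 10.4, 41.6 and 11.9 CPM in the combination libraries and 7.68, 41.2 and 15.8 CPM in the controls.

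Under the combination 218 genes rose and 86 fell. This is 2.46% of the genes tested in either direction, 1.77% upward and 0.697% downward. At least 2-fold changes were seen for 106 of the rising and 47 of the falling genes, and the median over all genes was -0.04 on the log2 scale. Among genes with a mean of at least 5 CPM, those with the largest rise were CD74, MX2, OAS2, MX1, CMPK2, IFI27, IFI6, TRANK1, IFI44L and OAS1. Those with the largest fall were MYEOV, SH2D2A, EGR1, KLK6, IGFBP2, KRT81, IL24, PGF, DENND2A and PRSS3. These 20 genes were named by the size of their change among called genes at that level whose groups were separate. Some rarer genes, named after their values were seen, rose as far. HLA-DPB1, HLA-DPA1 and HLA-DRA rose by 4.35, 3.74 and 3.62 on the log2 scale. IGFBP5, which binds insulin-like growth factors, rose by 3.23, on 5 reads over the controls and 46 over the combination libraries. All of these passed the low-count filter only through treated libraries. The alkaline phosphatases ALPP and ALPG, close relatives whose reads may be shared, rose by 2.67 and 2.28. Groups that do not overlap were common at 3 libraries against 3: the combination lay wholly above the control for 17.9% of all genes and wholly below for 15.8%.

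The number of calls depended on the libraries. With the repeat number as a block it was 202, of which 145 rose and 57 fell, and 201 were among the 304. It was 64 without control library 1, 84 without control library 2, 111 without combination library 1, 73 without combination library 2 and 78 without combination library 3. Without control library 3 it was higher, at 419, of which 254 rose and 165 fell. Without almonertinib library 1 it was 1474, all 304 among them. Removing each library's trend with length and GC content gave 628 rising and 976 falling genes, so that 39.2% of the calls were upward, against 71.7%. The part of library quality in the balance of rising and falling genes was not tested.

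**Figure D1:**
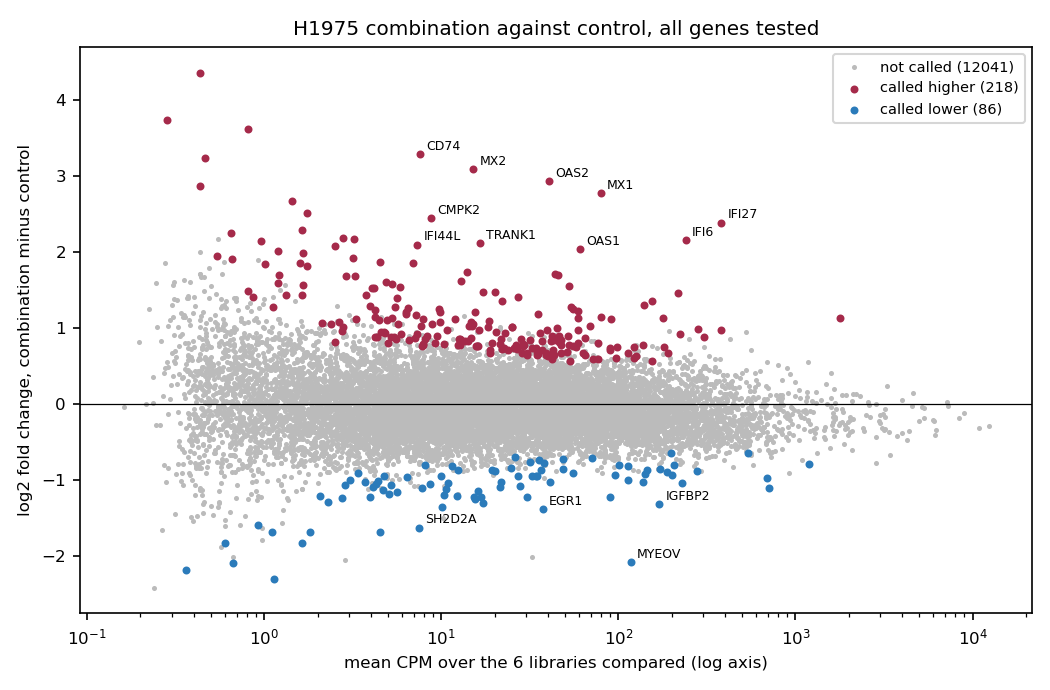
Log2 fold change of combination minus control against the mean CPM over the 6 libraries (log axis) for all 12345 genes tested. The 218 genes called higher reach past 4 at low levels, the 86 called lower stay above -3, and the labelled rising genes are mainly antiviral genes.

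The promoters of 6 rising genes of the interferon-stimulated list are shown. They were picked because at least 2 matches to the core of the response element lay wholly before the start. Rising genes outside the list were not considered for display. The stretches are the 170 bases before the RefSeq start (GRCh38.p14), 5′ to 3′ on the gene's strand, and capitals mark each match to that core, which is GAAA, any 2 bases and GAAA, on either strand. They lie at chr1:27672193-27672362 (IFI6, minus strand), chr14:94110566-94110735 (IFI27, plus strand), chr1:78620278-78620447 (IFI44L, plus strand), chr10:89392453-89392622 (IFIT1, plus strand), chr12:112938304-112938473 (OAS3, plus strand) and chr19:17405631-17405800 (BST2, minus strand).
IFI6: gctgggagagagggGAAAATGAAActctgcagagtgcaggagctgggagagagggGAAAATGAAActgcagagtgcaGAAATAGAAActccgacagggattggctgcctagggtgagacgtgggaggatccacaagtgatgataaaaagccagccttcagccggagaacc
IFI27: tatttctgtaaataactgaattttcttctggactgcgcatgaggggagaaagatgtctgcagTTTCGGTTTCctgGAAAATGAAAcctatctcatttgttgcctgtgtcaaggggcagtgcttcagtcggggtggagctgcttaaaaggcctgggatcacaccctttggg
IFI44L: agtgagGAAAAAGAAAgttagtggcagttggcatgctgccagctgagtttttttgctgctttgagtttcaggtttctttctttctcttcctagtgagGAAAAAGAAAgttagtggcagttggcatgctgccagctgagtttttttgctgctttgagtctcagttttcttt
IFIT1: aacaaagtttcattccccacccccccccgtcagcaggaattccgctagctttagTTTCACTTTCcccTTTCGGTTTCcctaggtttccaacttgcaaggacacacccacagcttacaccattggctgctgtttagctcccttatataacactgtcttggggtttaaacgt
OAS3: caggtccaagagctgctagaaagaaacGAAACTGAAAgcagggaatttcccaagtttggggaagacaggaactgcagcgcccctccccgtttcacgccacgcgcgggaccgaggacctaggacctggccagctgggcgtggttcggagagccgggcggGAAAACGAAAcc
BST2: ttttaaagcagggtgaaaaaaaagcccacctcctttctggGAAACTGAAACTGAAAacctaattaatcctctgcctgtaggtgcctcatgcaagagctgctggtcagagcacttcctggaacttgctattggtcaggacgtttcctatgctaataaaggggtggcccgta
IFI6 has 3 matches and the others 2 each. In BST2 the 2 matches overlap.

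Over windows of 300 bases, from 250 before to 50 after the start, the core was found in 3.648% of 27305 RefSeq promoters and in 2.738% of the 10007 promoters matched to tested genes. Of the rising genes 166 had a promoter in the table and 18 of these held it, which is 10.84%. Of the falling genes 57 had one and 1 held it. Among the 22 interferon-stimulated genes that rose, 16 had a promoter and 9 held the core, which is 56.25%. Over all 42 measured genes of the interferon-stimulated list, called or not, 33 had a promoter and 21 held it, which is 63.64%. The core was thus not more frequent in the members that rose than in the whole list. The AP-1 site TGANTCA, which FOS and JUN proteins bind, stood in 6.627% of the rising and 12.28% of the falling promoters, against 4.397% of all tested ones. The E-box CACGTG stood in 10.24% and 15.79%, against 10.01%, and the Y box CCAAT in 37.35% and 24.56%, against 36.5%. All were searched on both strands. A match describes the letters in these windows only.

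The interferon-stimulated list held 42 measured genes. Of these, 22 rose and none was called lower, with a median log2 fold change of 1.04 against -0.04 over all genes. Over all genes tested 1.77% rose. In 33 of the 42 the combination libraries lay wholly above the controls, against 17.9% of all genes. The rise was not particular to the combination. Against the same controls, almonertinib alone had 30 members called higher (median 1.47) and paclitaxel alone 19 (median 1.18). The list and its members had been met in earlier results of these data.

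MX1 (ENSG00000157601, GRCh38 chromosome 21, 41420304 to 41459214) encodes a GTPase that blocks viral replication. Its level was 15.5, 21.1 and 24.3 CPM in the controls and 142, 134 and 140 CPM under the combination. Every combination library stood far above every control, and the log2 fold change was 2.77 ± 0.24 (standard error; edgeR adjusted p = 2.08e-05).

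MX2 (ENSG00000183486), its neighbour at 41361943 to 41409390 on the same chromosome, encodes a related GTPase that restricts retroviruses. It went from 2.41, 2.74 and 4.40 CPM in the controls to 25.7, 27.0 and 28.8 CPM. The groups were far apart, with an 8.52-fold rise (log2 3.09 ± 0.25, edgeR adjusted p = 1.3e-05).

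The oligoadenylate synthetases sense double-stranded RNA and activate RNase L. OAS1 (chromosome 12, 112906777 to 112933222) stood at 22.1, 23.0 and 26.3 CPM in the controls and at 101, 93.2 and 99.8 CPM under the combination. OAS2 (chromosome 12, 112978395 to 113011723) stood at 8.05, 7.82 and 12.5 CPM and at 76.4, 67.4 and 72.8 CPM. Neither gene's groups overlapped. The log2 fold change was 2.04 ± 0.16 for OAS1 and 2.93 ± 0.26 for OAS2 (edgeR adjusted p = 1.3e-05 and 2.08e-05). OAS3 and OASL, named after their values were seen, rose by 1.46 ± 0.21 and 1.03 ± 0.16 (edgeR adjusted p = 0.00168 and 0.00284).

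IFI27 and IFI6 encode small interferon-induced proteins of mitochondria and other membranes. IFI27 read 124, 101 and 141 CPM in the controls and 596, 635 and 683 CPM under the combination. IFI6 read 91.2, 72.1 and 100.3 CPM and then 397, 397 and 381 CPM. In both genes the 3 combination libraries were close together and well above the controls. The log2 fold changes were 2.38 ± 0.24 for IFI27 and 2.15 ± 0.20 for IFI6 (edgeR adjusted p = 4.8e-05 and 2.23e-05).

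CMPK2, a mitochondrial nucleotide kinase next to the antiviral gene RSAD2, rose by 2.45 ± 0.23, from 1.99, 2.97 and 3.13 CPM to 15.1, 13.7 and 15.3 CPM (edgeR adjusted p = 2.23e-05). TRANK1, a large protein with helicase-like sequence, rose by 2.11 ± 0.31 (edgeR adjusted p = 0.00195). IFI44L stood at 2.17, 1.88 and 4.25 CPM in the controls and at 9.72, 10.8 and 15.1 CPM under the combination. The gap between its groups was narrower, and its rise of 2.10 ± 0.36 (edgeR adjusted p = 0.00684) was not called without control library 1 or without combination library 3, with adjusted p up to 0.0663.

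Among the factors that carry the interferon signal, IRF7 rose. IRF7, named after its values were seen, read 36.1, 30.9 and 31.7 CPM in the controls and 81.1, 77.4 and 76.8 CPM under the combination (log2 1.25 ± 0.17, edgeR adjusted p = 0.00115). The values for STAT2, IRF9 and IRF1 were 0.88, 0.03 and 0.43 on the log2 scale, and none was called (edgeR adjusted p = 0.053, 0.98 and 0.24). ISG15, a ubiquitin-like modifier, had a log2 fold change of 0.56 ± 0.23 and was not called. USP18, which removes that modifier from proteins, rose by 1.41 ± 0.18 (edgeR adjusted p = 0.000562). The count of 22 was 14 without control library 1, without control library 2 or without combination library 3, and 32 without almonertinib library 1. No member was called lower in any of the 16 alternatives run.

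**Figure D2:**
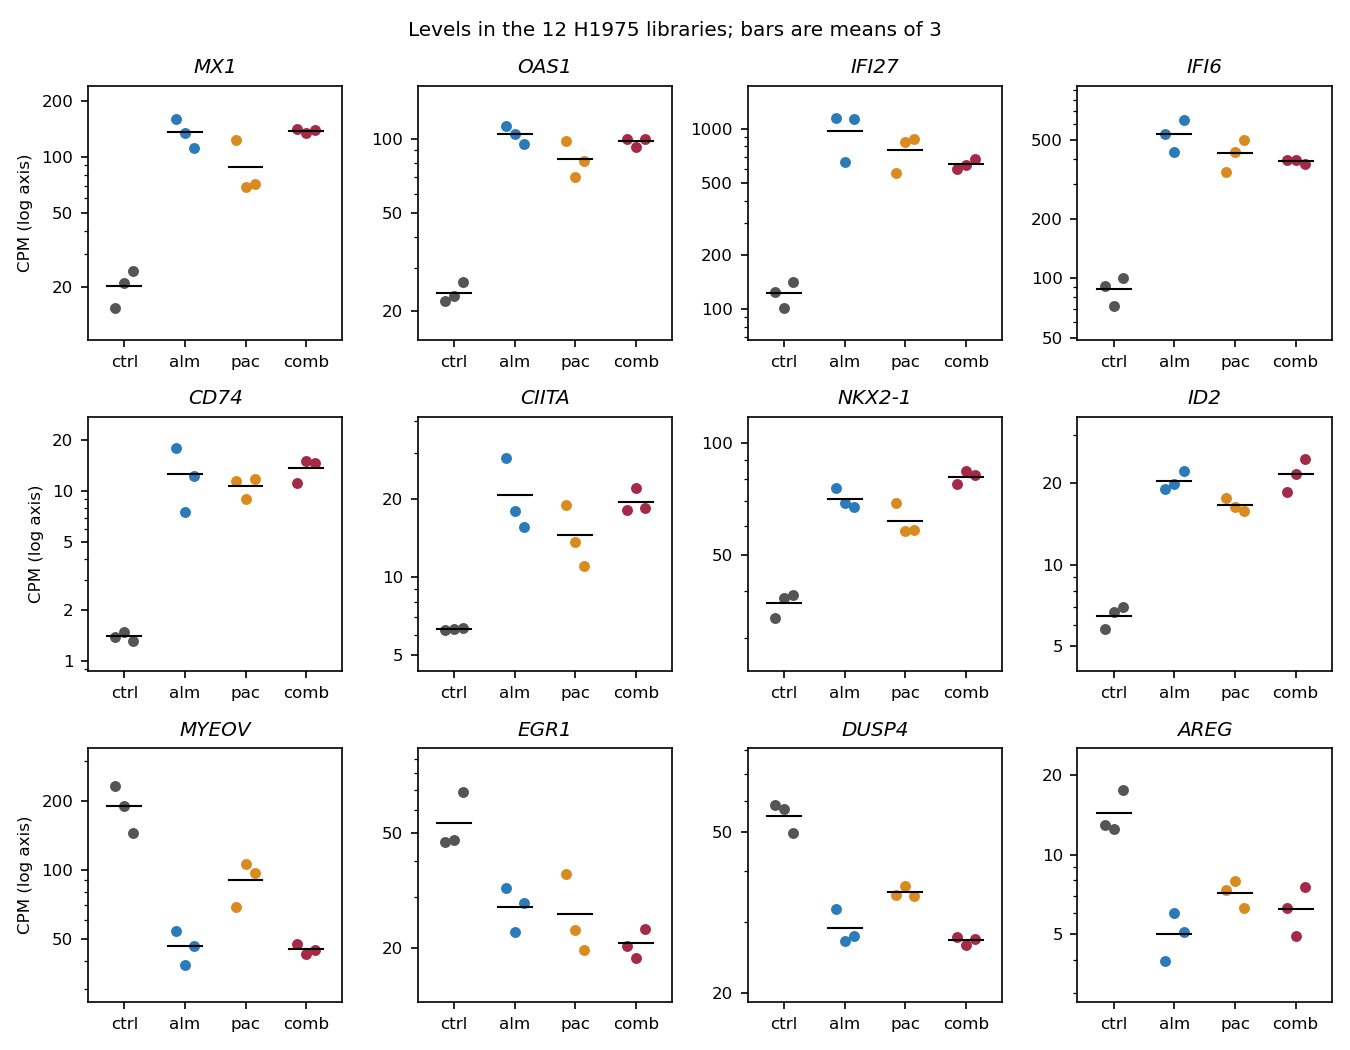
CPM (log axes) of 12 genes in the 12 H1975 libraries, with 3 points per group (ctrl, control; alm, almonertinib; pac, paclitaxel; comb, combination) and a bar at the mean. For each gene the 3 combination libraries lie wholly above the 3 controls (MX1 to ID2) or wholly below them (MYEOV, EGR1, DUSP4, AREG), while the single drugs often overlap the combination.

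Sensors of cytosolic nucleic acid rose in 2 of 13 measured members, against 1.77% of all genes tested. DHX58, which encodes the RIG-I-like receptor LGP2, went from 12.3, 11.7 and 12.3 CPM to 24.1, 26.0 and 23.2 CPM (log2 1.02 ± 0.17, edgeR adjusted p = 0.00469). ADAR, the enzyme that edits adenosine in double-stranded RNA, rose by 0.97 ± 0.19 (edgeR adjusted p = 0.0154). Its call was lost without any 1 of control libraries 1 and 2 and the combination libraries, with adjusted p up to 0.118.

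Antigen presentation rose in 9 of 22 measured members, against 1.77% of all genes tested, and fell in none, with a median log2 fold change of 0.59. Almonertinib alone had 11 of its members called higher and paclitaxel alone 6, against the same controls. Class II genes among the 9 were CIITA, CD74, HLA-DRA, HLA-DPA1, HLA-DPB1, HLA-DMA and HLA-DMB. HLA-DRA, HLA-DPA1, HLA-DPB1 and HLA-DMB were so low in the controls that they passed the low-count filter only through treated libraries, while HLA-DRB1 did not pass it, so the count and the median are not support for a rise of the class as a whole. CIITA (chromosome 16, 10866222 to 10943021), the coactivator of class II transcription, read 6.24, 6.34 and 6.40 CPM in the controls and 18.2, 22.0 and 18.4 CPM under the combination. Its control libraries were almost level and its log2 fold change was 1.62 ± 0.25 (edgeR adjusted p = 0.00229). CD74 (chromosome 5, 150401637 to 150412929), the invariant chain that escorts class II molecules, had the largest rise among genes with a mean of at least 5 CPM. It went from 1.39, 1.48 and 1.32 CPM to 11.2, 15.2 and 14.6 CPM (log2 3.29 ± 0.30, edgeR adjusted p = 2.23e-05).

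HLA-DMA, a chain of the HLA-DM complex that loads peptides onto class II molecules, was named after its values were seen. It was not rare, with 124, 80 and 96 reads in the controls and 207, 171 and 214 under the combination. It rose by 1.11 ± 0.20 on the log2 scale (edgeR adjusted p = 0.008), and the ratio after scaling for library size was 2.15.

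The other class II chains measured were rare transcripts, so their reads are given. HLA-DRA, the invariant alpha chain of HLA-DR, had 3, 3 and 1 reads in the controls and 27, 18 and 39 reads under the combination (edgeR adjusted p = 0.000326). Its scaled ratio was 13.1, with a 95% exact binomial interval of 6.08 to 33.5 that covers counting error only. HLA-DPA1, HLA-DPB1 and HLA-DMB were named after their values were seen. HLA-DPA1 had 2 reads over the controls and 29 over the combination libraries, a ratio of 15.8 with an interval of 3.998 to 136.7. HLA-DPB1 had 2 and 44 reads, a ratio of 24.0 with an interval of 6.26 to 204. HLA-DMB had 6 and 42 reads, a ratio of 7.63 with an interval of 3.23 to 22.0. HLA-DRB1, the partner chain of HLA-DRA, had 0 reads over the controls and 1 over the combination libraries, and HLA-DQA1 and HLA-DQB1 had 0 reads in all 6, where a count of 0 allows up to 3. HLA genes vary between people and resemble each other, so reads may be lost or shared in the counting.

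Among class I genes HLA-B and HLA-F, named after their values were seen, were called. HLA-B read 165, 155 and 146 CPM in the controls and 298, 298 and 284 CPM under the combination (log2 0.92 ± 0.15, edgeR adjusted p = 0.00459). B2M, the light chain, had 0.60 ± 0.19 and was not called (edgeR adjusted p = 0.11). TAP1, the peptide transporter, had 0.41 ± 0.16 and was not called. The count of 9 was 5 without control library 1, control library 2, combination library 2 or combination library 3, and 17 without almonertinib library 1. Markers of leukocytes, cells that carry class II, summed to between 49.9 and 54.9 CPM in the combination libraries and between 43.1 and 48.6 CPM in the controls. These sums lack the correction for composition, so the gap between the groups is not evidence of a difference. PTPRC and MS4A1 were at 0 in all 6. With the correction, CSF1R averaged 41.6 CPM under the combination and 41.2 CPM in the controls.

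The EGFR and MAPK target list fell in 7 of 28 measured members, against 0.697% of all genes tested. None was called higher, and the median was -0.44. Under almonertinib alone 10 members were called lower (median -0.53), and under paclitaxel alone 2 (median -0.34). EGR1 (chromosome 5, 138465490 to 138469315), an immediate-early zinc finger factor, read 46.3, 47.2 and 68.8 CPM in the controls and 20.4, 18.4 and 23.3 CPM under the combination. DUSP4 (chromosome 8, 29333064 to 29350668), an ERK phosphatase, read 58.4, 57.1 and 49.7 CPM and then 27.4, 26.2 and 27.2 CPM. The groups of both genes were apart, with changes of -1.38 ± 0.23 for EGR1 and -1.03 ± 0.14 for DUSP4 (edgeR adjusted p = 0.0048 and 0.000989).

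ETV4, an ETS factor induced by ERK, fell by 1.22 ± 0.23 on the log2 scale, from 148, 133 and 93.4 CPM to 53.2, 51.1 and 56.6 CPM (edgeR adjusted p = 0.012). FOSL1, EPHA2 and LIF, an AP-1 subunit, an ephrin receptor and a cytokine named after their values were seen, had log2 fold changes of -1.11, -0.85 and -0.80 (edgeR adjusted p = 0.0163, 0.0267 and 0.0167). MYC read 605, 744 and 609 CPM in the controls and 442, 417 and 399 CPM under the combination (log2 -0.64 ± 0.16, edgeR adjusted p = 0.0443). With the repeat block MYC had an adjusted p of 0.0688 and was not called. Its call was also lost with RLE factors, with no filter on low counts, and without control library 1 or 2 or any combination library, with adjusted p up to 0.207.

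Among genes followed whether called or not, DUSP6, SPRY4 and CCND1 missed the threshold. DUSP6, the ERK-specific phosphatase, read 3.19, 3.03 and 4.74 CPM in the controls and 2.38, 2.73 and 3.09 CPM under the combination, so its groups overlapped (log2 -0.42 ± 0.26, edgeR adjusted p = 0.398). SPRY4, a Sprouty inhibitor, had -0.50 ± 0.24 (edgeR adjusted p = 0.27). CCND1, the G1 cyclin downstream of ERK, read 193, 210 and 197 CPM and then 151, 132 and 134 CPM. Its groups did not overlap, its log2 fold change was -0.53 ± 0.14, and its edgeR adjusted p of 0.0537 lay just past the threshold. The count of 7 was 2 without control library 1, control library 2, combination library 1 or combination library 2, 3 without combination library 3, and 14 without almonertinib library 1. ETV4 was not called without control library 1 or 2 or combination library 1 or 2, with edgeR adjusted p up to 0.0879.

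Among ERBB receptors and ligands 1 of 13 measured members rose and 1 fell, against 1.77% and 0.697% of all genes tested. AREG, the ligand amphiregulin, read 13.0, 12.5 and 17.5 CPM in the controls and 6.26, 4.94 and 7.56 CPM under the combination (log2 -1.19 ± 0.22, edgeR adjusted p = 0.011). ERBB3, the receptor that couples to PI3K, rose from 48.7, 53.8 and 65.9 CPM to 97.3, 99.0 and 98.5 CPM (log2 0.81 ± 0.16, edgeR adjusted p = 0.0151). EGFR itself read 100.4, 108 and 147 CPM and then 127, 118 and 139 CPM, and was not called (log2 0.11 ± 0.20, edgeR adjusted p = 0.794). AREG was not called without combination library 1 or 2 (adjusted p up to 0.0837), and ERBB3 was not called without control library 1 or 2 or any combination library (adjusted p up to 0.118).

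FOXO targets and brakes on PI3K had 1 of 19 members called, where 2.46% of all genes tested were called. PIK3IP1, which inhibits PI3K at the membrane, rose from 0.786, 0.571 and 0.635 CPM to 2.21, 2.79 and 2.99 CPM (log2 1.99 ± 0.33, edgeR adjusted p = 0.00459), on 40 reads over the controls and 146 over the combination libraries. The list's median was 0.43, and 16 of 19 members had a positive value, against 5593 of the 12345 genes tested. Without almonertinib library 1, 8 members were called higher.

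**Figure D3:**
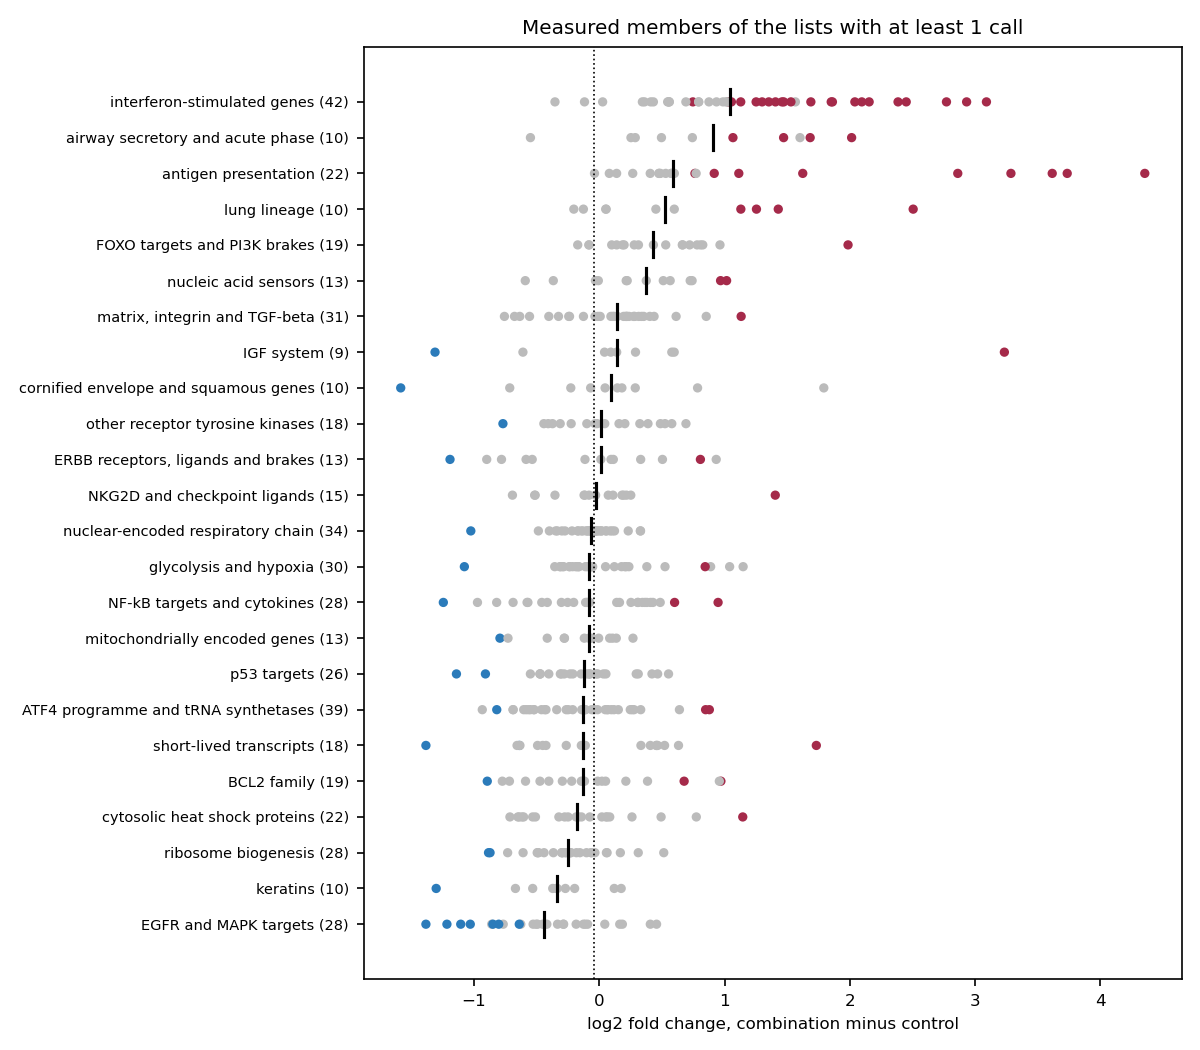
Log2 fold change of combination minus control for each measured member of the 24 lists with at least 1 call (number of members in brackets). Red points were called higher, blue points called lower and grey points not called; black bars are list medians, and the dotted line is the median of all genes, -0.04. The interferon list has 22 red points and the EGFR and MAPK list 7 blue points.

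In the BCL2 family 2 of 19 members rose and 1 fell, against 1.77% and 0.697% of all genes tested. BCL2L11, the pro-death BH3 protein BIM, read 13.7, 14.2 and 15.3 CPM in the controls and 23.4, 22.0 and 23.6 CPM under the combination (log2 0.68 ± 0.17, edgeR adjusted p = 0.0436). BMF, another BH3 protein, rose from 9.44, 12.1 and 11.6 CPM to 21.3, 21.9 and 21.8 CPM (log2 0.97 ± 0.22, edgeR adjusted p = 0.029). BCL2L1, which encodes the survival protein BCL-XL, fell from 288, 241 and 201 CPM to 140, 128 and 125 CPM (log2 -0.89 ± 0.19, edgeR adjusted p = 0.0206). With the repeat block BCL2L11 had an adjusted p of 0.0756 and was not called, nor was it with no filter on low counts or without control library 3. All 3 lost their call without control library 1 or 2 or any combination library, with adjusted p up to 0.238.

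Other genes tied to stress and survival gave few calls. In the p53 target list 2 of 26 members fell, against 0.697% of all genes tested, and none was called higher. PLK2, a polo-like kinase, went from 21.6, 23.2 and 22.1 CPM to 10.04, 10.14 and 10.16 CPM (log2 -1.14 ± 0.17, edgeR adjusted p = 0.00204). AEN, a nuclease, had -0.91 ± 0.20 (edgeR adjusted p = 0.0276). CDKN1A, which encodes the cell cycle inhibitor p21, read 167, 140 and 117 CPM and then 102, 99.5 and 104 CPM, and was not called (log2 -0.47 ± 0.21, edgeR adjusted p = 0.244). AEN lost its call without control library 1 or 2 or any combination library, with adjusted p up to 0.162.

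No member of the mitosis list (45 measured), the G1-S and DNA replication list (41), the kinesins (21), the tubulins (14) or the DNA repair list (30) was called by edgeR, and DESeq2 called none either. At an unadjusted p under 0.05 edgeR had 2 mitosis genes, 3 G1-S genes, 2 kinesins, no tubulin and 4 DNA repair genes. MKI67, the proliferation antigen, read 163, 179 and 234 CPM in the controls and 260, 251 and 288 CPM under the combination (log2 0.47 ± 0.24, edgeR adjusted p = 0.299). CCNB1, the mitotic cyclin, had 0.09 ± 0.15 (edgeR adjusted p = 0.791). TUBB, a beta-tubulin and a target of paclitaxel, had -0.32 ± 0.22 (edgeR adjusted p = 0.45), and its reads may be shared with similar tubulin genes. The medians of these 5 lists lay between -0.35 and -0.13. A missed threshold does not show that levels were equal. Without almonertinib library 1, 4 mitosis genes, 3 G1-S genes, 2 kinesins and 2 DNA repair genes were called lower.

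Genes of lung identity rose in 4 of 10 measured members, against 1.77% of all genes tested, and fell in none. The other 12 of the 22 listed did not pass the low-count filter, so the count does not describe lung identity as a whole. Among those 12, the surfactant genes SFTPB, SFTPC and SFTPD had 2, 0 and 2 reads over the controls. Over the combination libraries they had 0, 2 and 6. NKX2-1 (chromosome 14, 36516392 to 36521149), the lineage factor of lung epithelium, read 34.0, 38.4 and 39.0 CPM in the controls and 77.5, 84.3 and 81.9 CPM under the combination (log2 1.13 ± 0.14, edgeR adjusted p = 0.000403). NAPSA, a protease of surfactant processing, rose from 0.648, 0.514 and 0.391 CPM to 2.86, 3.30 and 2.80 CPM (log2 2.51 ± 0.35, edgeR adjusted p = 0.00115), on 31 and 162 reads. NAPSA was so low in the controls that it passed the low-count filter only through treated libraries, yet it is counted among the 4. MUC1, a membrane mucin, rose by 1.25 ± 0.22 (edgeR adjusted p = 0.00654), and SFTA3, named after its values were seen, by 1.43 ± 0.26 (edgeR adjusted p = 0.00923). The groups were apart in each of these 4 genes. MUC1 had an adjusted p of 0.0543 without control library 1.

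Airway secretory and acute-phase genes also rose in 4 of 10 measured members, against 1.77% of all genes tested. All 4 are complement genes, but not all complement genes moved this way. A complement list was chosen after its values were seen. Of its 11 measured members these 4 were called higher and none lower, with a median of -0.0035 on the log2 scale. CFD had -0.79 ± 0.27 and was not called (edgeR adjusted p = 0.142). C3, the central complement protein, read 8.51, 8.91 and 9.77 CPM in the controls and 23.0, 24.8 and 27.6 CPM under the combination (log2 1.47 ± 0.22, edgeR adjusted p = 0.00229). The proteases C1R and C1S, which start the classical pathway, rose by 1.68 ± 0.27 and 2.01 ± 0.35 (edgeR adjusted p = 0.00303 and 0.00684). C1S rested on 28 reads over the controls and 105 over the combination libraries, a scaled ratio of 4.09 with a counting interval of 2.67 to 6.44. Its control libraries had 5, 9 and 14 reads. C1S thus passed the low-count filter only through treated libraries, yet it is counted among the 4. CFB, a protease of the alternative pathway named after its values were seen, rose by 1.07 ± 0.24 (edgeR adjusted p = 0.0267). The count of 4 in the airway list was 2 without control library 1, where C1S had an adjusted p of 0.051.

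The genes of largest fall included secreted factors, an adaptor and a keratin. MYEOV (chromosome 11, 69294138 to 69367726), a gene near CCND1 that is often overexpressed in tumours, had the largest fall named. It read 234, 190 and 145 CPM in the controls and 47.3, 42.7 and 44.5 CPM under the combination (log2 -2.08 ± 0.21, edgeR adjusted p = 4.8e-05). IL24, a cytokine of the IL-10 family, went from 22.3, 20.4 and 22.4 CPM to 10.3, 8.43 and 8.78 CPM (log2 -1.25 ± 0.18, edgeR adjusted p = 0.00134). SH2D2A, an adaptor protein, went from 13.1, 13.1 and 7.72 CPM to 3.78, 4.12 and 3.14 CPM (log2 -1.62 ± 0.27, edgeR adjusted p = 0.00433). The groups of all 3 genes were separate, and their calls held in all 16 alternatives.

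KLK6, a secreted kallikrein protease, and KRT81, a hair keratin whose reads may be shared with its close relatives, fell by 1.35 ± 0.20 and 1.30 ± 0.18 on the log2 scale (edgeR adjusted p = 0.00201 and 0.00119). DENND2A, which acts on RAB proteins, fell by 1.22 ± 0.20 (edgeR adjusted p = 0.00381). IGFBP2, which binds insulin-like growth factors, read 274, 247 and 205 CPM in the controls and 97.9, 106 and 88.7 CPM under the combination (log2 -1.31 ± 0.24, edgeR adjusted p = 0.0112). PGF, a ligand of the VEGF family, and PRSS3, a trypsinogen with close relatives, fell by 1.23 ± 0.23 and 1.22 ± 0.27 (edgeR adjusted p = 0.0118 and 0.0261). These last 3 lost their call when single libraries were left out. IGFBP2 did so without control library 1 or any combination library (adjusted p up to 0.0813), PGF without control library 1 or combination library 2 or 3 (up to 0.0904), and PRSS3 without control library 1 or 2 or any combination library (up to 0.186).

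In other lists, a gene of short-lived transcripts and a matrix gene rose. ID2, which blocks basic helix-loop-helix factors, read 5.78, 6.68 and 6.99 CPM in the controls and 18.6, 21.6 and 24.4 CPM under the combination (log2 1.73 ± 0.17, edgeR adjusted p = 4.69e-05). TGFBI, a matrix protein induced by TGF-beta, rose from 1016, 1150.4 and 1193 CPM to 2457, 2502 and 2405 CPM (log2 1.13 ± 0.17, edgeR adjusted p = 0.00201). Both genes' groups were far apart, and both calls held in all 16 alternatives.

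Further lists held 1 to 3 calls each, where 1.77% of all genes tested rose and 0.697% fell. In the list of ATF4 targets and tRNA synthetases 2 of 39 members rose and 1 fell. DDIT4, an inhibitor of mTORC1, read 219, 217 and 210.01 CPM in the controls and 331, 399.8 and 458 CPM under the combination (log2 0.88 ± 0.19, edgeR adjusted p = 0.0242). PPP1R15A, which directs a phosphatase to eIF2-alpha, went from 163, 155 and 116 CPM to 87.3, 79.5 and 79.1 CPM (log2 -0.82 ± 0.19, edgeR adjusted p = 0.0375). Both were lost without single libraries: DDIT4 without control library 1 or 2 or combination library 2 or 3 (adjusted p up to 0.119), PPP1R15A without control library 1 or 2 or any combination library (up to 0.211).

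In the list of NF-kB targets and cytokines 2 of 28 members rose and 1, IL24, fell, against 1.77% and 0.697% of all genes tested. CCL5, a chemokine, rose from 3.52, 3.31 and 2.54 CPM to 5.45, 5.39 and 7.21 CPM, and SOD2, the mitochondrial superoxide dismutase, from 70.0, 81.1 and 80.3 CPM to 104, 120 and 127 CPM (edgeR adjusted p = 0.0244 and 0.033). CCL5 was lost without any 1 of the 6 libraries (adjusted p up to 0.165), and SOD2 without any of them but control library 3 (up to 0.211). SOD2 was also not called with length and GC trends removed, with or without the repeat block. Of 22 cytosolic heat shock genes only HSPA1B was called, whose reads may be shared with its near copy HSPA1A. It rose from 48.3, 56.8 and 43.8 CPM to 117, 108 and 104 CPM (log2 1.15 ± 0.23, edgeR adjusted p = 0.0167), and was lost without control library 1 or 2 or any combination library (up to 0.114).

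Of 28 ribosome biogenesis genes 2 fell, against 0.697% of all genes tested. RRP9 and BOP1, which process ribosomal RNA, had log2 fold changes of -0.87 ± 0.21 and -0.88 ± 0.22 (edgeR adjusted p = 0.0401 and 0.042), and with the repeat block their adjusted p was 0.0595 and 0.0569. Among 13 mitochondrially encoded genes MT-ND3, a subunit of complex I, went from 1580.2, 1566 and 1385 CPM to 1011, 746 and 858 CPM (log2 -0.79 ± 0.17, edgeR adjusted p = 0.0261). With length and GC trends removed it was not called, with or without the repeat block. The count of 2 and the call of MT-ND3 were both lost without control library 1 or 2 or any combination library, where adjusted p reached 0.262 for BOP1 and 0.174 for MT-ND3. No cytosolic ribosomal protein gene (35 measured), proteasome gene (28) or gene of the endoplasmic reticulum stress list (24) was called by edgeR or by DESeq2, and at an unadjusted p under 0.05 edgeR had 1, 6 and 2 of them.

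The next comparison asked whether the combination differed from each drug alone in the same line. No gene was called against almonertinib (0% of 12345) and none against paclitaxel (0%), with edgeR. At an unadjusted p under 0.05 there were 1230 and 1704 genes, and DESeq2 called 41 and 478. Without almonertinib library 1 edgeR called 1101 genes against almonertinib, and without paclitaxel library 1 it called 424 against paclitaxel. Against the same control libraries, almonertinib alone gave 241 calls (1.95%) and paclitaxel alone 79 (0.64%).

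For the rising genes of largest change, single-drug and combination levels are set side by side. MX1 read 161, 135 and 112 CPM under almonertinib and 124, 68.7 and 71.9 CPM under paclitaxel, beside 142, 134 and 140 CPM under both. The combination minus almonertinib was 0.03 for MX1, with a 95% interval of -0.44 to 0.51, and the combination minus paclitaxel was 0.65, with an interval of 0.17 to 1.13 (edgeR adjusted p = 0.961 and 0.201). CD74 read 18.1, 7.55 and 12.3 CPM under almonertinib and 11.5, 8.99 and 11.8 CPM under paclitaxel. Its differences were 0.12 (interval -0.42 to 0.67) and 0.35 (interval -0.20 to 0.89). IFI27 read 1150.1, 657 and 1129 CPM under almonertinib, where the lowest library overlapped the combination, with a difference of -0.62 (interval -1.10 to -0.13, edgeR adjusted p = 0.499).

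Among the 10 falling genes named by size, MYEOV showed the widest gap from paclitaxel. It read 68.5, 106 and 96.9 CPM under paclitaxel, all above the combination, and 54.1, 38.3 and 46.3 CPM under almonertinib, which overlapped it. The combination minus paclitaxel was -1.01 (interval -1.44 to -0.58, edgeR adjusted p = 0.0625) and the combination minus almonertinib -0.04 (interval -0.47 to 0.39). EGR1 read 32.1, 22.6 and 28.5 CPM under almonertinib and 36.1, 23.0 and 19.7 CPM under paclitaxel. Its differences were -0.42 (interval -0.91 to 0.07) and -0.34 (interval -0.83 to 0.15), and neither was called.

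PC9 gives a comparison with separate controls, at other doses, so line and dose cannot be told apart. There the combination changed 6489 of 12796 genes (50.7%). Of the 218 genes that rose in H1975, 201 were tested in PC9, where 135 rose and 10 fell. That is 67.2% rising, against 24.7% of all genes tested in PC9. Of the 86 that fell, 81 were tested in PC9, where 52 fell and 7 rose, or 64.2% falling against 26.0%. In a fit of all 24 libraries the change differed between the lines for 2402 of 13380 genes (18%). Among the 20 genes of largest change in H1975, it differed for 13. These 20 were chosen by their change in the same H1975 libraries, which favours a larger change in H1975. Their count is therefore not comparable with the share over all genes.

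Of the 10 rising genes named by size, 7 rose more in H1975. OAS2 stood at 140 ± 41.3 CPM (SD, n = 3) in PC9 controls and 222 ± 9.38 CPM under the combination, a log2 fold change of 0.67 ± 0.16, against 9.44 ± 2.62 and 72.2 ± 4.56 CPM in H1975. The difference between the lines was 2.28 ± 0.31 (edgeR adjusted p = 2.42e-05). CMPK2 was not called in PC9 (0.32 ± 0.21), and its difference was 2.15 ± 0.31 (edgeR adjusted p = 5.09e-05). For CD74, IFI6 and IFI44L the difference was not called. EGR1 fell by nearly the same amount in both lines, by 1.38 in H1975 and 1.35 in PC9, and the difference was -0.01 on the log2 scale. DENND2A fell in H1975 and rose by 0.85 ± 0.26 in PC9 (edgeR adjusted p = 0.013), a difference of -2.06 ± 0.33 (edgeR adjusted p = 0.000139).

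**Figure D4:**
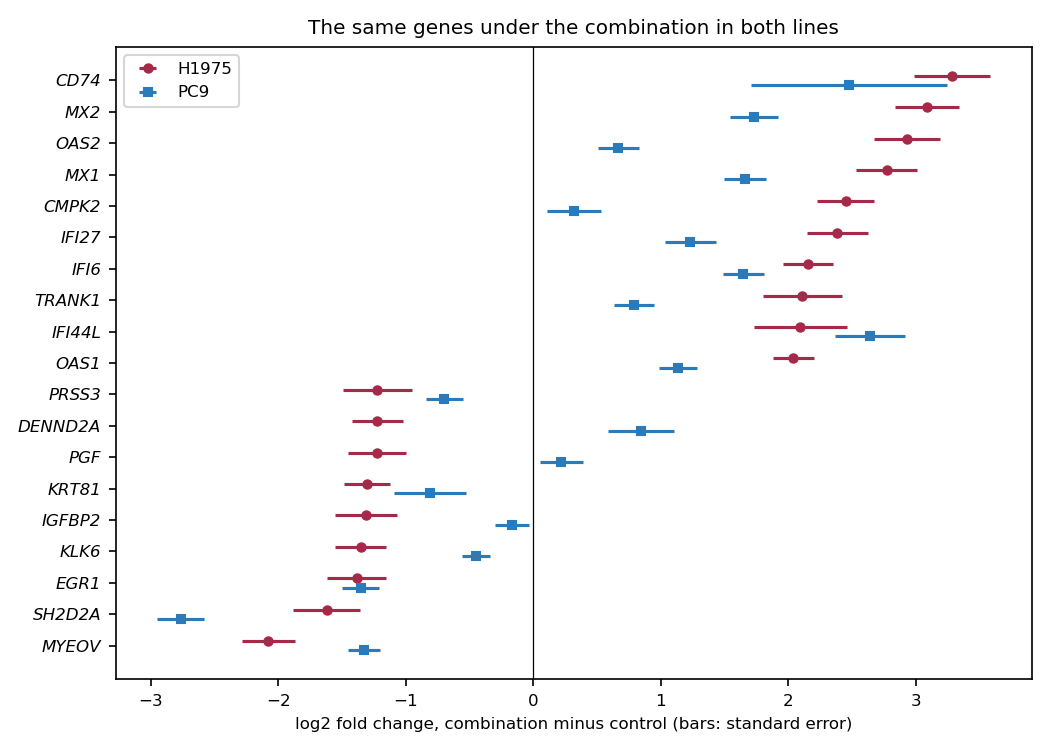
Log2 fold change of combination minus control with its standard error in H1975 (circles) and PC9 (squares) for 19 of the 20 genes of largest change in H1975; IL24 was not tested in PC9. OAS2 and CMPK2 lie far apart in the 2 lines, EGR1 coincides, and DENND2A lies on opposite sides of 0.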

How the data were processed

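RNA was sequenced from 24 libraries of 2 lines and 4 treatments. Per the labels' protocols, TRIzol was used to isolate RNA, and a SMART RNA-seq kit to make libraries. The authors deposited raw read counts per gene, without normalization. The tools named by the submitters' processing notes are HISAT2 2.2.1 and HTSeq, with the build GRCh38; the annotation, parameters and counted strand are not given in the sources used here, so reads of overlapping or antisense genes cannot be separated. Positions, lengths and GC content came from GENCODE v29 and symbols also from NCBI gene names (19405 of 19702 genes).

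Genes with low counts were removed (filterByExpr) and library sizes scaled with TMM factors in edgeR 4.0.16 (R 4.3.3). A quasi-likelihood fit with 1 mean per group on the 12 H1975 libraries gave two-sided p-values, Benjamini-Hochberg adjusted over all 12345 genes, and log2 fold changes (prior count 0.125). The standard error is the log2 fold change divided by the square root of its F statistic. Differences between lines came from a fit of all 24 libraries. Libraries held 15255499 reads or more; counting error is larger for rare transcripts, for some of which reads are given.

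The members and the 51 gene lists (1196 entries, all in the table) were chosen with earlier results of these data known, and lists were described by counts and medians without a test. Named were the 10 rising and 10 falling genes of largest change (called, mean of at least 5 CPM, protein-coding, groups apart), up to 3 rising and 3 falling called members per list described by smallest p (or, where none was called, the most abundant member), and 10 genes followed whether called or not. Lists and their members not quoted here were left out for space, and some items are not reported here.

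Deviations from the group means correlated at 0.11, 0.169 and 0.345 between combination and control libraries of the same repeat number. Unlike numbers gave values from -0.286 to 0.137, so the matched values did not all stand above the others. The labels do not say what a number marks. The main fit did not pair libraries, and the repeat block was run as an alternative. Alternatives were RLE factors, no filter or a stricter one, DESeq2 1.42.0, the repeat block, removal of length and GC trends (known for 99.9% of tested genes), other sets of libraries, and each library left out. On counts simulated for 12260 genes in the comparison of combination and control, 73% of 100 genes changed 2-fold and 99% of 100 genes changed 4-fold were recovered. Promoters were RefSeq windows (GRCh38.p14). Figures were drawn with matplotlib 3.10.9.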

Additional observations from a re-analysis of the deposited data

Results flagged for a closer look

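The change under the combination differed between H1975 and PC9 in 13 of the 20 genes of largest change, by an interaction test over all 24 libraries (edgeR, adjusted over 13380 genes). These 20 were chosen by their change in the same H1975 libraries, which favours a larger change in H1975. Differences are H1975 minus PC9 on the log2 scale, at drug doses that were not the same in the lines. Among the rising genes they were 1.38 for MX2, 2.28 for OAS2, 1.13 for MX1, 2.15 for CMPK2, 1.17 for IFI27, 1.34 for TRANK1 and 0.92 for OAS1. All 7 rose more in H1975. Among the falling genes they were -0.75 for MYEOV, -0.90 for KLK6, -1.14 for IGFBP2, -1.44 for PGF and -2.06 for DENND2A, which fell more in H1975, and 1.15 for SH2D2A, which fell more in PC9. The difference for MYEOV had an edgeR adjusted p of 0.0445 and was not called with RLE factors (0.0618), with the repeat block (0.0556), or without any 1 of the 12 libraries of the 4 groups except H1975 control library 3 (up to 0.147). Leaving out PC9 control library 3 ended the calls of MX1 (0.0532) and IFI27 (0.066). For SH2D2A, leaving out H1975 combination library 2 gave 0.0608, PC9 control library 1 gave 0.0667 and PC9 combination library 2 gave 0.0654.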

How the results depend on the processing

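Against 304 genes called between combination and control, DESeq2 gave 708, the repeat block 202, removal of length and GC trends 1604, that removal with the repeat block 1463, a fit of only the 6 libraries compared 1917 and a fit of all 24 libraries 1258. Leaving out 1 library at a time gave 64 to 1474, the highest without almonertinib library 1, which is in neither group. RLE factors gave 339, no filter 321 and a stricter filter 277. Against almonertinib (0 calls) DESeq2 gave 41, and leaving out 1 library gave 0 to 1101. Against paclitaxel (0 calls) RLE factors gave 56, no filter 54, a stricter filter 3, DESeq2 478, removal of length and GC trends 135 and only the 6 libraries 822, and leaving out 1 library gave 0 to 424. The difference between the lines moved from 2402 to 4021 genes when length and GC trends were removed. The cause of these shifts was not tested. Of the 59 named genes that were called, 28 were called in every one of the 16 alternatives that gave them a value, 31 lost the call when at least 1 library was left out and 10 in at least 1 other alternative. None changed direction. Among named genes without a call, 11 of 35 gained one in at least 1 alternative. With the repeat block, FGFR4, RRP9, BOP1, NDUFB8, NUPR1 and SPRR1B also lost their calls, beside MYC and BCL2L11. The fits without almonertinib library 1 and some others were chosen after seeing the data. Depth limits the MHC class II chains, which had at most 7 control reads in HLA-DRA, HLA-DPA1, HLA-DPB1 and HLA-DMB.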

Other observations

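Circadian genes were examined because several stood among the called genes, so the list was chosen after its values were seen and is given as values. Of 17 measured members 6 were called higher, against 1.77% of all genes tested, and none lower, with a median log2 fold change of 0.55. PER3, a period protein, had 1.39, 1.03 and 1.56 CPM in the controls and 4.48, 4.69 and 5.99 CPM under the combination. PER2, another, had 2.68, 3.20 and 3.42 CPM and then 8.04, 8.81 and 7.65 CPM. The clock output factors DBP and TEF had log2 fold changes of 1.12 ± 0.22 and 1.09 ± 0.17 (edgeR adjusted p = 0.0167 and 0.00352), and the repressor BHLHE40 had 0.75 ± 0.18 (edgeR adjusted p = 0.0387). CLOCK, BMAL1 and NPAS2, which drive the loop, had ratios of combination to control, scaled for library size, of 0.81, 0.938 and 0.791, and none was called. In PC9, PER3 and DBP rose by 0.96 and 1.00 on the log2 scale under the combination (edgeR adjusted p = 0.000786 and 1.18e-05), and PER2 and TEF had 0.05 and 0.19 and were not called (edgeR adjusted p = 0.796 and 0.111).

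Genes next to the class II pathway were looked at in the same way. RFX5, a subunit of the factor that recruits CIITA to class II promoters, read 24.8, 27.4 and 27.9 CPM in the controls and 41.1, 44.6 and 43.5 CPM under the combination (log2 0.69 ± 0.14, edgeR adjusted p = 0.0158). CTSS, the protease that trims the invariant chain, rose by 1.21 ± 0.25 (edgeR adjusted p = 0.0209). The other RFX subunits, RFXAP and RFXANK, were not called. In the APOL family 3 of 4 measured members were called higher: APOL1, APOL2 and APOL6, by 1.08, 0.69 and 0.97 on the log2 scale. Over all genes tested 1.77% were called higher. Of the 4 ID genes, ID4 was called beside ID2, with 0.86 ± 0.16 (edgeR adjusted p = 0.01).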
